A study of Homo sapiens with 4 samples.

Results

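Haematopoietic stem and progenitor cells depend on a transcription factor complex in which a tissue-restricted basic helix-loop-helix (bHLH) protein, an E protein, bridging proteins and a GATA factor bind DNA together. The 9 genes described here encode its parts and close partners. TAL1 and LYL1 are the tissue-restricted bHLH proteins, TCF12 (HEB), TCF3 (E2A) and TCF4 (E2-2) are E proteins, LMO2 and LDB1 are the bridging proteins, GATA2 is the GATA factor of early progenitors, and HHEX is a homeobox factor of the same progenitors. They were chosen by gene name. All enhancer regions whose deposited gene annotation gives 1 of these names were taken, 46 regions of 45672 over 4 tables, and 8 of the 9 genes had at least 1 region in some table, among 13171 genes with one.

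The cells were Kasumi-1, a human acute myeloid leukaemia line in which the t(8;21) translocation fuses RUNX1 to RUNX1T1, so all groups carried that fusion. In 2 samples SETD8 had been knocked out by CRISPR/Cas9 with a guide against it (sgSETD8), and 2 samples carried a non-targeting guide (sgNT, genotype WT in the labels). SETD8, gene symbol KMT5A, is the enzyme that monomethylates histone H4 at lysine 20. The mark measured was H3K27ac, acetylated lysine 27 of histone H3, which stands at active enhancers and promoters. CUT&Tag uses an antibody to tether a transposase to chromatin that carries the mark, and 100000 cells went into each library. The number of guides, the use of pools or single clones and the time after Cas9 are not stated in the labels. H3K27ac regions do not measure the knockout: KMT5A itself had 1 region in the dense sgSETD8 table and 1 in the dense sgNT table, and none in the sparse pair.

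The 4 tables list H3K27ac regions made by joining neighbouring peaks, and fall into pairs by the naming of their region identifiers. In the sparse pair the sgSETD8 table held 7276 regions and the sgNT one held 5186. In the dense pair the sgSETD8 table held 18061 and the sgNT one 15149. The sgNT table of the sparse pair was placed in its group only because its identifiers name no SETD8 guide, so its group is less certain than the others. Each pair had 1 table per group, the read depth behind the tables is unknown, and an exact two-sided permutation of 2 tables against 2 cannot give a p below 0.333. No p-values are given for that reason, and differences are set beside the same quantity over the whole tables. Genes of the myeloid progenitor list, among them KIT, CD34 and MPO, had regions in both groups, 7 of 10 in dense sgSETD8 and 7 of 10 in dense sgNT, while the erythroid genes GATA1, KLF1, HBA1 and HBB had none. B cell markers had a region for 3 of 6 genes in dense sgSETD8 and 2 in dense sgNT, T cell markers for 3 of 6 and 3, erythroid markers for 2 of 7 and 2, and megakaryocyte markers for 1 of 5 and 0. Sparse sgSETD8 listed 2, 1, 0 and 2 genes of those lists and sparse sgNT 1, 0, 0 and 1. Of 8 non-haematopoietic markers, 2 had a region in each sgSETD8 table (4 regions in the dense, 2 in the sparse), against 1 in dense sgNT (1 region) and 0 in sparse sgNT. CD3G, ITGA2B, PF4, ALB and CDH1 were without a region everywhere, and the part of these lists in the results that follow was not tested.

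TAL1 and LYL1 bind DNA only as dimers with an E protein, at E-boxes (CANNTG), and LMO2 and LDB1 hold such a dimer next to a GATA factor at GATA motifs. In mouse and human blood progenitors the complex is found at enhancers of its own genes, and ID proteins oppose it by capturing E proteins. In t(8;21) leukaemia the RUNX1::RUNX1T1 fusion protein works in a complex that includes E proteins, LYL1, LMO2 and LDB1. The start regions of the member genes therefore open the account. RefSeq promoter windows (GRCh38.p14) were matched for 8 of the 9 genes, and LMO2 was not among them. The 250 bases before the start are shown for the windows that lay wholly inside a region of at least 1 dense table (for TCF12, the first and the last of 5 such windows), and for the longer TAL1 transcript, whose start lay between its 2 dense sgNT regions. All are written 5′ to 3′ on the gene's strand, and capitals mark CANNTG and GATAA or its reverse complement TTATC.
GATA2, chr3:128488531-128488780, minus strand: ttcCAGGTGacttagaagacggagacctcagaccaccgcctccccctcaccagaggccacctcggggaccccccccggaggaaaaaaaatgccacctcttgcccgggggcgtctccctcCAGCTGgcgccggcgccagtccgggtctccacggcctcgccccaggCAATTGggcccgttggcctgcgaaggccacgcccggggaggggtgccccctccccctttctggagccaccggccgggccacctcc
LDB1, chr10:102115003-102115252, minus strand: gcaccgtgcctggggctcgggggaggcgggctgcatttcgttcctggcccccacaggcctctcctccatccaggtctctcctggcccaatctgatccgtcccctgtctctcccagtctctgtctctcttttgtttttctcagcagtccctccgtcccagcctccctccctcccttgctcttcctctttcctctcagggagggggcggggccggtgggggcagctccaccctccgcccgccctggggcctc
LYL1, chr19:13102859-13103108, minus strand: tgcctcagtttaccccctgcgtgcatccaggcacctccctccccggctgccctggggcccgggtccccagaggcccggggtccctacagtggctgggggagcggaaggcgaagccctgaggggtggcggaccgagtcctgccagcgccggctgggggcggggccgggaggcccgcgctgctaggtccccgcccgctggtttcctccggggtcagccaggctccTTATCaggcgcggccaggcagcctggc
TAL1, chr1:47232336-47232585, minus strand: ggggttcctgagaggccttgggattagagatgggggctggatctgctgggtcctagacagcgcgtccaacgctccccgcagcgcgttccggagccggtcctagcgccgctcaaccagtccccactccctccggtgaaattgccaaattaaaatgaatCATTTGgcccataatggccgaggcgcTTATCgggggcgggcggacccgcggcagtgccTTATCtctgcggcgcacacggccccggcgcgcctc
TCF12, chr15:56917840-56918089, plus strand: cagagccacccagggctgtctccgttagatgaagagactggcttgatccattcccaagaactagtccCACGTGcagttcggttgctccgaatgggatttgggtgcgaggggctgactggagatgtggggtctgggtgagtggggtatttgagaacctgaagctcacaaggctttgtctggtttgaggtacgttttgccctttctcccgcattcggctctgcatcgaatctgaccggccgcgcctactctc
TCF12, chr15:57219180-57219429, plus strand: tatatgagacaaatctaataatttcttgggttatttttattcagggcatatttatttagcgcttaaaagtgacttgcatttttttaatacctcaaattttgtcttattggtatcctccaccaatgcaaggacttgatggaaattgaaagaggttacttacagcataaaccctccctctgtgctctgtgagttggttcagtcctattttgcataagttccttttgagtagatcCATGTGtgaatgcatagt

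Counted from the start, with -1 as the base before it, the GATA2 stretch holds CAGGTG at -247, CAGCTG at -131 and CAATTG at -85 and no GATAA. The TAL1 stretch holds TTATC at -67 and at -35 and CATTTG at -93. A single TTATC stands at -27 before LYL1, CACGTG at -183 before the main TCF12 start and CATGTG at -18 before its downstream start, and the LDB1 stretch has no match. Both strands were searched and no match of 1 motif overlaps a match of the other in these stretches. Over 34789 RefSeq windows of 250 bases, 61.8% hold CANNTG, 14% hold CAGCTG, 20.5% hold GATAA and 3.89% hold GATAA at least 2 times. A CANNTG match is thus common, while GATAA at least 2 times, as in the TAL1 stretch, is less so. Whether the TAL1 matches matter was not tested. The other TAL1 window, whose start also lay between those regions, holds neither motif. A match is a description of these letters and not a binding site.

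H3K27ac cover of these windows differed between genes and, for 2 of them, between groups. A whole window (250 bases before to 50 after the start) lay inside a dense sgSETD8 region for GATA2, LYL1 and TCF12, 3 of 8 genes, against 8.90% of 27195 genes. In dense sgNT the 3 genes were GATA2, LYL1 and LDB1, where the share over all genes was 7.63%. TCF12 windows were thus covered in sgSETD8 and not in sgNT, and the LDB1 window in sgNT and not in sgSETD8. The covered GATA2 window is that of the downstream start, and the window of its upstream start lay in no region of the dense tables. The only LDB1 window is also that of a start inside the gene, at chr10:102115002, while the gene's upstream end is at chr10:102121442. Neither dense LDB1 region reached that upstream end. Regions of joined peaks include the gaps between peaks, so the cover does not place acetylation on these bases. For the sparse pair, 0 of 8 genes had a window inside a region.

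Across the 9 genes, fewer regions were listed in sgSETD8 than in sgNT in both pairs, while the tables as a whole went the other way. Regions assigned to them numbered 12 in dense sgSETD8 and 16 in dense sgNT, and 7 in sparse sgSETD8 and 11 in sparse sgNT. On the log2 scale the ratio of sgSETD8 to sgNT was -0.42 in the dense pair and -0.65 in the sparse pair, a mean of -0.53 ± 0.17 (SD, n = 2 pairs). Over all regions the same ratio was 0.25 and 0.49, a mean of 0.37 ± 0.17 (SD, n = 2 pairs). Both SDs are the spread between 2 pairs of tables formed by the naming of identifiers, and the sparse pair has the less certain sgNT table. They do not measure replicate error. The difference rests on low-ranked regions in the dense pair: in the better-ranked 50% of each table, the 9 genes had 12 regions in sgSETD8 and 12 in sgNT. In the sparse pair the direction of the tables as a whole depended on which regions were kept. Of all sparse regions, those that overlap a dense region numbered 2132 in sgSETD8 and 4095 in sgNT.

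In the dense pair 4 genes (TAL1, TCF12, LMO2 and HHEX) had fewer regions in sgSETD8, 0 had more and 3 (LYL1, LDB1 and GATA2) had equal numbers. Over the 10826 genes with a region in that pair, 21.2% had fewer and 37.3% had more. In the sparse pair 5 genes (TCF3, LMO2, LDB1, GATA2 and HHEX) had fewer regions in sgSETD8, LYL1 had more and TCF12 had equal numbers. Over 7397 genes of the sparse pair, 33.4% had fewer and 51.3% had more. LMO2 and HHEX were thus the genes with fewer regions in sgSETD8 in both pairs, and each difference was a single region.

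**Figure D1:**
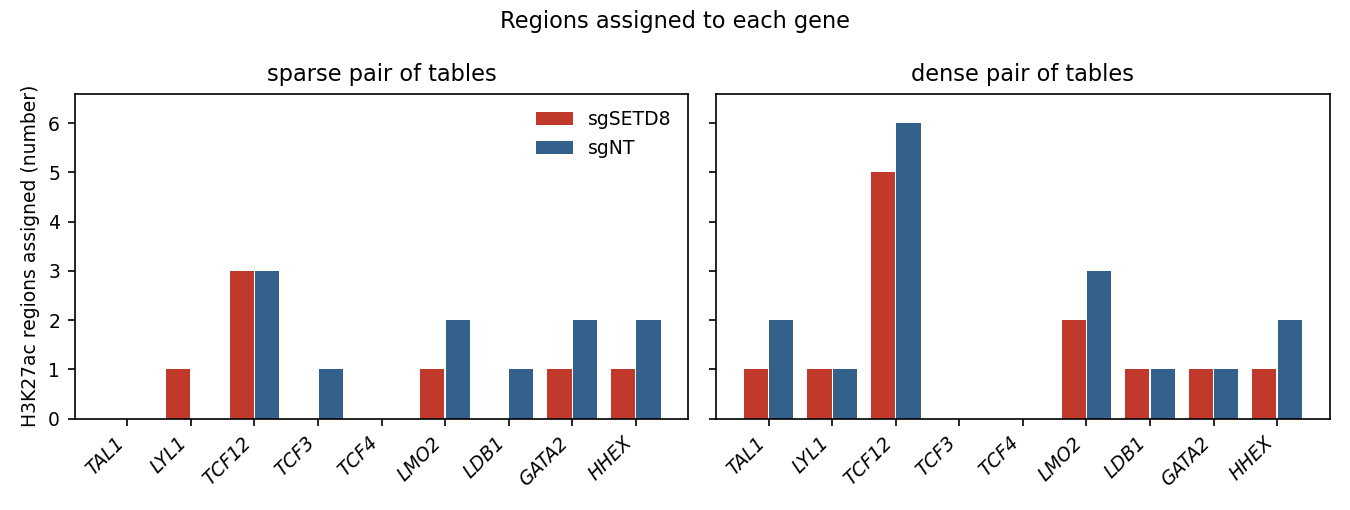
Number of H3K27ac regions assigned to each of the 9 genes (y axis) in the sparse pair (left) and the dense pair (right), with sgSETD8 in red and sgNT in blue and 1 table per bar. TCF12 has the tallest bars, at 5 in dense sgSETD8 and 6 in dense sgNT, TCF4 has none, and LYL1 in the sparse pair is the gene with more regions in sgSETD8.

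In the dense pair the members' covered length was higher in sgSETD8, as was that of the tables as a whole, 153 Mb in sgSETD8 and 133 Mb in sgNT. Member regions covered 372 kb in dense sgSETD8 and 339 kb in dense sgNT, and TCF12 alone decided that order: without it, a setting chosen after seeing the data, the cover was 112 kb in sgSETD8 and 132 kb in sgNT. They were built from 85 joined peaks in dense sgSETD8 and 99 in dense sgNT. Sparse member regions covered 7.90 kb in sgSETD8 and 11.1 kb in sgNT, where the sparse tables covered 6.89 Mb in sgSETD8 and 7.75 Mb in sgNT. The median member region was 14286.5 bp long in dense sgSETD8 and 10327.5 bp in dense sgNT, where the table medians were 1499 and 1515 bp. Regions of these genes were therefore long for their tables in the dense pair. The sparse median was 284 bp in sgSETD8, below the table's 341 bp, and 692 bp in sgNT, above the table's 512 bp.

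Every dense sgSETD8 region of these genes overlapped a dense sgNT region by at least 1 bp. The count without such a counterpart was 0 of 12, which allows a share of up to 25% by a limit of 3 counts and up to 26.5% by the exact Clopper-Pearson 95% interval, while 34.0% of all dense sgSETD8 regions had none. In dense sgNT it was 3 of 16 (18.8%, exact Clopper-Pearson 95% interval 4.05% to 45.6%), where 22.7% of all regions had none. Those 3 are single small peaks of TAL1, LMO2 and HHEX. Such intervals take each region as an independent draw and hold no replicate error. Among sparse regions, 5 of 7 sgSETD8 regions (71.4%, 29.0% to 96.3%) and 9 of 11 sgNT regions (81.8%, 48.2% to 97.7%) had no counterpart, near the 85.1% and 79.1% of all regions in those tables. Dense member regions were long for their tables, and a long region meets another by 1 bp more easily. The 34.0% and 22.7% are not matched for length. With at least 50% of a region to be covered, 2 of 12 in dense sgSETD8 (16.7%) and 4 of 16 in dense sgNT (25%) had no counterpart. The share over all regions at that cover was not computed.

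The sparse tables differed in how far they met the dense ones. Of the members' regions, 3 of 7 in sparse sgSETD8 and 8 of 11 in sparse sgNT overlapped a dense region of either group. The shares over all regions were 29.3% in sparse sgSETD8 and 79.0% in sparse sgNT. Regions of the shortest width that a table holds, 274 bp in sparse sgSETD8 and 293 bp in sparse sgNT, made up 3 of 7 member regions in sgSETD8 and 0 of 11 in sgNT, and 29.7% and 10.9% of all regions. How much of the sparse difference comes with this was not tested.

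TAL1, the bHLH factor required to specify blood, lies on chromosome 1 and was marked over its downstream part. Its dense sgSETD8 region, chr1:47208828-47225534 (hg38), joined 5 peaks over 16.7 kb, and its dense sgNT region, chr1:47209655-47227034, joined 4 peaks over 17.4 kb. Along the gene they ran between 6.80 and 23.5 kb from the start in sgSETD8 and between 5.30 and 22.7 kb in sgNT, past the last exon, and their centres fell in the 3′ UTR exon. The signal density, the authors' signal per bp, was 0.639 in sgSETD8 and 0.944 in sgNT, and its scaling is not stated, so a lower value in one table is not by itself a loss. A further peak of 596 bp, chr1:47241328-47241923, lay 9.29 kb upstream of the start in intergenic sequence in dense sgNT. It ranked 13518 of 15149 by signal and had no counterpart in dense sgSETD8, whose nearest region was 15793 bp away. Neither sparse table held a TAL1 region.

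LYL1, the close relative of TAL1 with an overlapping role in adult progenitors, was covered from end to end in the dense pair. The dense sgSETD8 region, chr19:13096033-13106028, was a single peak of 9.996 kb with density 1.06, and the dense sgNT region, chr19:13096113-13105698, joined 2 peaks over 9.59 kb with density 1.36. Of the bases covered in either group, 95.9% were covered in both. Both regions hold the whole gene of 3.83 kb and the promoter shown above. The gene's sparse region lay elsewhere: chr19:13089557-13093902 in sgSETD8, 2 peaks over 4.35 kb and density 1.34, centred 11.1 kb from the LYL1 start in the last intron of NFIX. It ranked 186 of 7276 in its table, yet it met no region in any other table, and the nearest dense regions were 2130 bp away in sgSETD8 and 2210 bp away in sgNT.

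**Figure D2:**
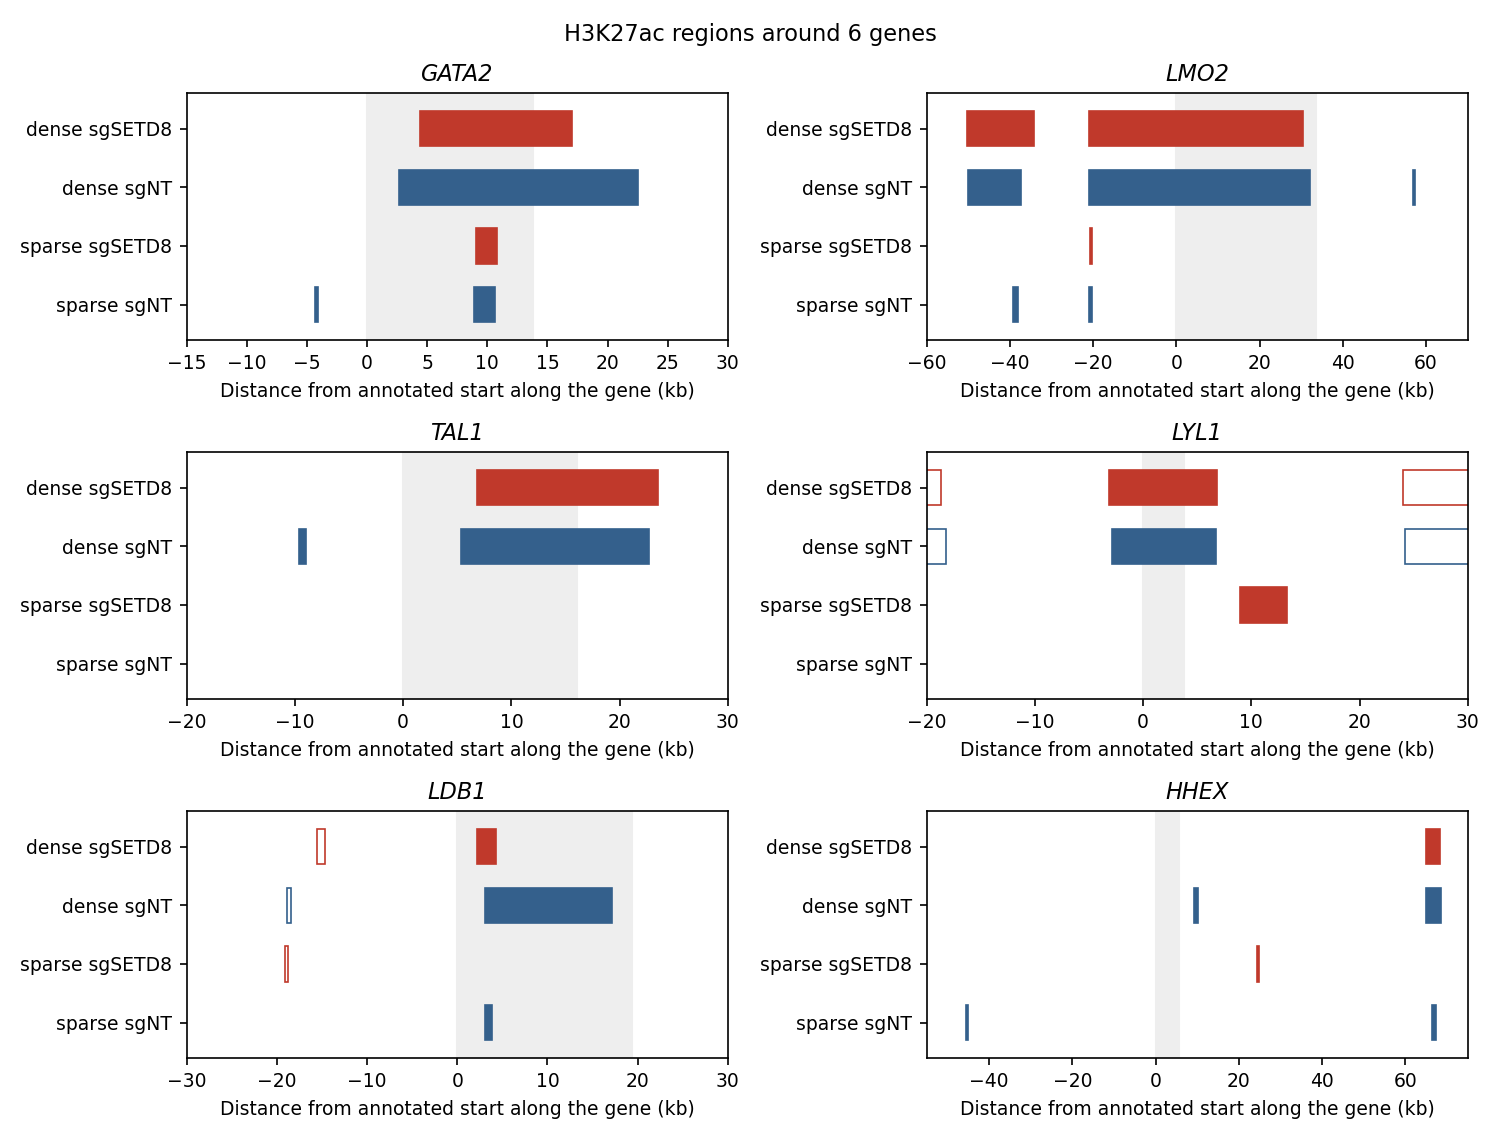
H3K27ac regions along GATA2, LMO2, TAL1, LYL1, LDB1 and HHEX, as distance in kb from the annotated start in the direction of transcription (x axis), 1 row per table, with sgSETD8 in red and sgNT in blue. Grey marks the gene, filled bars are regions assigned to it, open bars are regions assigned to other genes, and the shortest regions are drawn wider than they are. The dense regions of TAL1, LYL1 and LMO2 nearly coincide between groups, while those of GATA2 and LDB1 are longer in sgNT.

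TCF12, the E protein HEB, had the greatest covered length of the 9 genes in both dense tables. Its largest dense sgSETD8 region, chr15:56915757-57090791, joined 34 peaks over 175 kb at density 0.506, and the dense sgNT region, chr15:56923333-57090739, joined 46 peaks over 167 kb at density 0.610. They ranked 75 in dense sgSETD8 and 88 in dense sgNT by signal, and 28 and 25 by length. Their downstream ends lay within 1 kb of each other. The upstream end stood 2.33 kb before the annotated start in sgSETD8, taking in 4 promoter windows, and 5.24 kb after it in sgNT.

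Further into the TCF12 introns 2 sgSETD8 regions were longer than what they met in sgNT. The region chr15:57111843-57149023 in sgSETD8 (37.2 kb, 11 peaks, density 0.318) spanned 2 separate sgNT regions, chr15:57111368-57121859 (10.5 kb, 3 peaks, 0.623) and chr15:57143327-57144994 (1.67 kb, 1 peak, 0.805). That joining accounts for the 5 dense regions in sgSETD8 against 6 in sgNT. The region chr15:57192071-57227338 in sgSETD8 (35.3 kb, 8 peaks, 0.310) took in the downstream promoter shown above and lay over chr15:57198864-57214127 in sgNT (15.3 kb, 7 peaks, 0.479). In all, TCF12 regions covered 260 kb in dense sgSETD8 and 207 kb in dense sgNT, with 57 and 60 peaks, and 78.8% of the bases covered in either were covered in both. More length at a similar number of peaks was thus the pattern of the regions assigned to this gene. Dense regions assigned to LINC00926 began inside TCF12 and are not in these values. They covered 64.8 kb at rank 319 in sgSETD8 and 56.7 kb at rank 308 in sgNT.

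TCF12 had 3 sparse regions in sgSETD8 and 3 in sgNT that shared 0 bases, yet the best of each were neighbours. In intron 3, chr15:56984268-56984953 in sgSETD8 (density 3.76, rank 421) and chr15:56984988-56985979 in sgNT (density 7.25, rank 408) stood 34 bp apart, both inside the large dense regions. The other 2 sgSETD8 regions were of the shortest width, ranked 5024 and 6287 and met no dense region. The other 2 sgNT regions ranked 3002 and 3718 and lay inside dense regions of both groups. A further sparse sgNT region inside the gene, chr15:57283557-57283920, was assigned to SNORD13D and is not counted here.

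**Figure D3:**
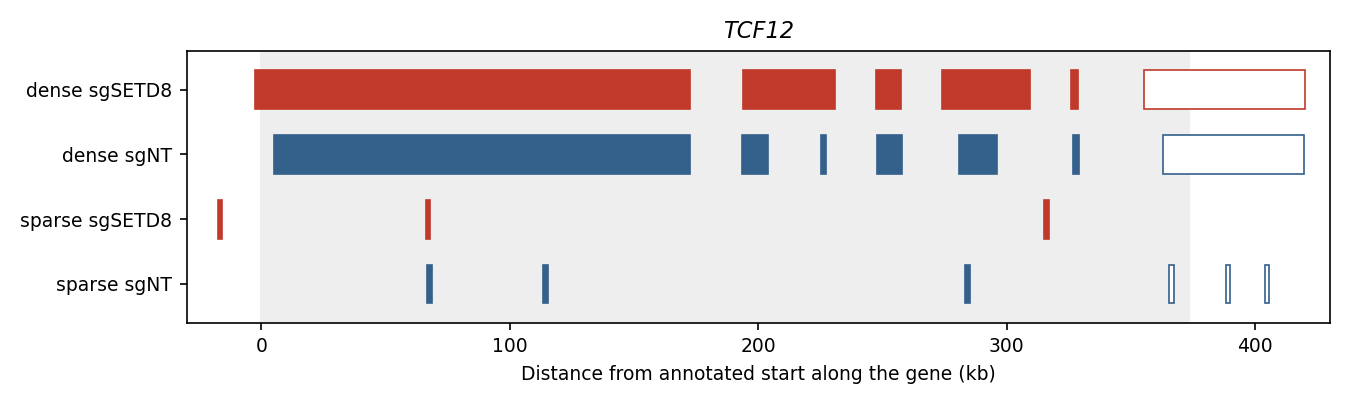
H3K27ac regions along TCF12, as distance in kb from the annotated start (x axis), 1 row per table, with sgSETD8 in red, sgNT in blue, the gene in grey, open bars for regions assigned to other genes and the shortest regions drawn wider than they are. The large dense region reaches past the start in sgSETD8 and begins 5.24 kb after it in sgNT, and 2 of the regions further along are longer in sgSETD8.

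TCF3, which encodes E12 and E47 and is the E protein of early lymphoid cells, had no region in either dense table. Its single region was chr19:1665660-1668914 in sparse sgNT, 2 peaks over 3.26 kb, centred 14.7 kb upstream of the start on an AluY repeat, with density 0.597 and rank 1422 of 5186. It met no region of another table. Inside the TCF3 gene 2 short regions were assigned to the neighbour UQCR11, chr19:1618793-1619121 in sparse sgSETD8 and chr19:1609831-1610265 in dense sgNT.

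TCF4, the E protein of plasmacytoid dendritic cells, had 0 regions in all 4 tables although the gene spans 414 kb, more than the 373 kb of TCF12. Absence is common among genes of that size here. Of 773 protein-coding genes of at least 300 kb, 313 (40.5%, exact 95% interval 37.0% to 44.0%) had no region in any table and 441 (57.1%) none in the dense pair. Dense regions of E proteins were thus those of TCF12 in both groups, and TCF3 and TCF4 had none.

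LMO2, the LIM-only adaptor between the bHLH dimer and the GATA factor, held 2 long dense blocks in each group. The block over most of the gene and the sequence before it, chr11:33861712-33913060 in sgSETD8 (51.3 kb, 13 peaks) and chr11:33859910-33913128 in sgNT (53.2 kb, 14 peaks), had density 0.710 in sgSETD8 and 0.976 in sgNT and ranked 383 and 296. The upstream block, chr11:33926367-33942312 in sgSETD8 (15.9 kb, 5 peaks) and chr11:33929460-33942137 in sgNT (12.7 kb, 7 peaks), had density 0.652 in sgSETD8 and 1.04 in sgNT. Of the bases covered by LMO2 regions in either dense table, 92.1% were covered in both. The region found in dense sgNT alone was a 352 bp peak on an LTR84a repeat, chr11:33834914-33835265, at rank 14979 of 15149.

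LMO2 is also 1 of the 2 genes with bases covered in all 4 tables. That stretch, chr11:33912647-33912930, is 284 bp long and lies 20.7 kb upstream of the start. There it was the whole sparse sgSETD8 region (density 1.92, rank 1776 of 7276) and part of a 609 bp sparse sgNT region (density 4.37, rank 1099 of 5186). A second sparse sgNT region, chr11:33930036-33931215, 38.5 kb upstream at rank 674, lay inside the upstream dense block of both groups and had no sparse sgSETD8 counterpart.

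LDB1, the LIM-binding protein that dimerises and joins distant enhancers to promoters, differed in extent at equal number. The dense sgSETD8 region, chr10:102117183-102119242, was a single peak of 2.06 kb in intron 1 at density 0.968, and the dense sgNT region, chr10:102104247-102118389, joined 2 peaks over 14.1 kb at density 0.441. They shared 8.05% of the bases covered in either, the lowest share among the 7 genes with dense regions. Their ranks were 7077 of 18061 in sgSETD8 and 3469 of 15149 in sgNT. The positions of the 2 joined peaks within the sgNT region were not used here, so its cover of the LDB1 window inside the gene includes the gap between them. Sparse sgNT had chr10:102117628-102118319, inside both dense regions, and sparse sgSETD8 had none.

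GATA2, the GATA factor that maintains stem and progenitor cells, had its strongest sparse region at the same place in both groups. In sparse sgSETD8 it was chr3:128482411-128484169 (2 peaks, density 5.22, rank 115 of 7276) and in sparse sgNT chr3:128482530-128484288 (1 peak, density 15.6, rank 43 of 5186), each 1759 bp long and in intron 4. The table medians of density were 0.810 in sparse sgSETD8 and 1.49 in sparse sgNT, so both stood well above their tables. The 1640 bp they share, chr3:128482530-128484169, were covered in all 4 tables. In mouse, an intronic enhancer of Gata2 with an E-box next to a GATA motif is bound by this complex and is needed for stem cell formation. Whether the human region corresponds to it was not tested.

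In the dense pair the GATA2 region was shorter in sgSETD8. It was chr3:128476177-128488803 in sgSETD8 (12.6 kb, 2 peaks, density 1.11, rank 1453) and chr3:128470690-128490509 in sgNT (19.8 kb, 5 peaks, density 1.36, rank 756). The sgSETD8 region lay wholly inside the sgNT one, 63.7% of the bases covered in either were covered in both, and each reached the downstream promoter with its 3 E-box matches. A second sparse sgNT region, chr3:128497268-128497569, lay 4.23 kb upstream of the start in an intron of GATA2-AS1 and met no region of another table. In both pairs GATA2 thus had a lower rank in the sgSETD8 table than in the sgNT table.

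HHEX, a homeobox factor that in mouse acts downstream of Lmo2 and Lyl1 in T-cell progenitor leukaemia, was marked far from the gene. The dense regions, chr10:92755007-92758328 in sgSETD8 (1 peak, density 1.64, rank 3700) and chr10:92755007-92758416 in sgNT (2 peaks, density 1.57, rank 3858), are intergenic and centred 66.7 and 66.8 kb downstream of the start. A sparse sgNT region, chr10:92756417-92757438 (density 4.51, rank 654), lay inside them. The sparse sgSETD8 region, chr10:92714378-92714651, was of the shortest width, sat on a MER52C repeat 24.6 kb from the start and met no other region. Dense sgNT also had an 843 bp peak on a CpG island, chr10:92699252-92700094, 9.72 kb from the start, with the nearest dense sgSETD8 region 54912 bp away. Another sparse sgNT region, chr10:92644413-92644760, lay 45.4 kb upstream in intron 17 of KIF11. The link of these distant regions to HHEX is the deposited annotation's.

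Ranks within a table do not depend on how signal was scaled. The order of genes by best rank in the dense pair was TCF12, LMO2, GATA2, TAL1, LYL1, HHEX and LDB1 in sgSETD8. In sgNT it was TCF12, LMO2, GATA2, TAL1, LYL1, LDB1 and HHEX, so the last pair changed places. As a share of the table, where lower is more total signal, TCF12 stood at 0.415% in sgSETD8 and 0.581% in sgNT, LMO2 at 2.12% and 1.95%, and GATA2 at 8.04% and 4.99%. Total signal grows with length. Per bp, the large TCF12 region was below the table median: 0.506 against 0.589 in dense sgSETD8, and 0.610 against 0.756 in dense sgNT. LDB1 stood at 39.2% in sgSETD8 and 22.9% in sgNT. Among sparse regions GATA2 stood at 1.58% in sgSETD8 and 0.829% in sgNT, LMO2 at 24.4% and 13.0%, and HHEX at 41.1% and 12.6%. Ranks from lists of different lengths are not a measure of change.

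**Figure D4:**
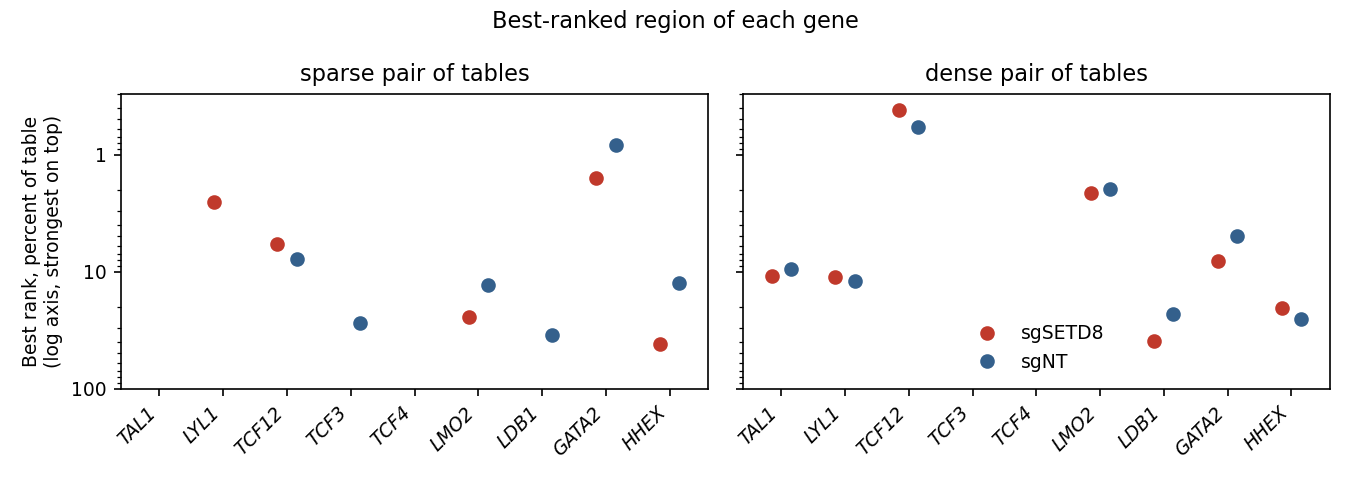
Best-ranked region of each gene by total signal, as a percentage of its table (y axis, log scale, strongest on top) in the sparse pair (left) and dense pair (right), with sgSETD8 in red and sgNT in blue and 1 point per table. Long regions rank high at equal signal per bp. In the dense pair TCF12 is at the top in both groups, at 0.415% in sgSETD8 and 0.581% in sgNT, and genes without a region have no point.

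Regions are often called super-enhancers when they rank above the place where signal plotted against rank, both scaled to 1, turns steeper than slope 1. That place was computed here and is not the authors' call. In dense sgSETD8, 2 of 12 member regions were past it, and in dense sgNT 2 of 16, in each case the large TCF12 and LMO2 blocks. The shares over all regions were 4.26% in dense sgSETD8 and 4.68% in dense sgNT. In sparse sgSETD8, 2 of 7 were past it, the GATA2 intron and the LYL1 region inside NFIX, and in sparse sgNT 1 of 11, the GATA2 intron. Over all regions of the sparse tables the shares were 2.80% in sgSETD8 and 3.03% in sgNT.

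Signal density was compared at dense regions that cover each other by at least 90% in both groups. There were 1769 such regions, with a median log2 ratio of sgSETD8 to sgNT of -0.26, and each region's ratio was taken relative to that median, around which the SD was 0.24. The 6 matched member regions had a median of -0.14, and 5 of them were below the median of all. TAL1 was at -0.30, the 9.38th percentile of matched regions, and was the 1 member region lower by over 1 SD, where 14.2% of all matched regions were. The LMO2 block over the gene was at -0.20, the smaller matched TCF12 region at -0.18, LYL1 at -0.10 and the large TCF12 region at -0.0059. HHEX was at 0.33, the 91.9th percentile. All 6 values are single measurements with no replicate, and GATA2 and LDB1 had no region matched at this cover. The upstream LMO2 block, at density 0.652 in sgSETD8 and 1.04 in sgNT, was also unmatched, as 79.5% of its sgSETD8 region was covered. With a cover of at least 50%, 9 member regions were matched, 7 of them below the median of all, and their median was -0.18.

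**Figure D5:**
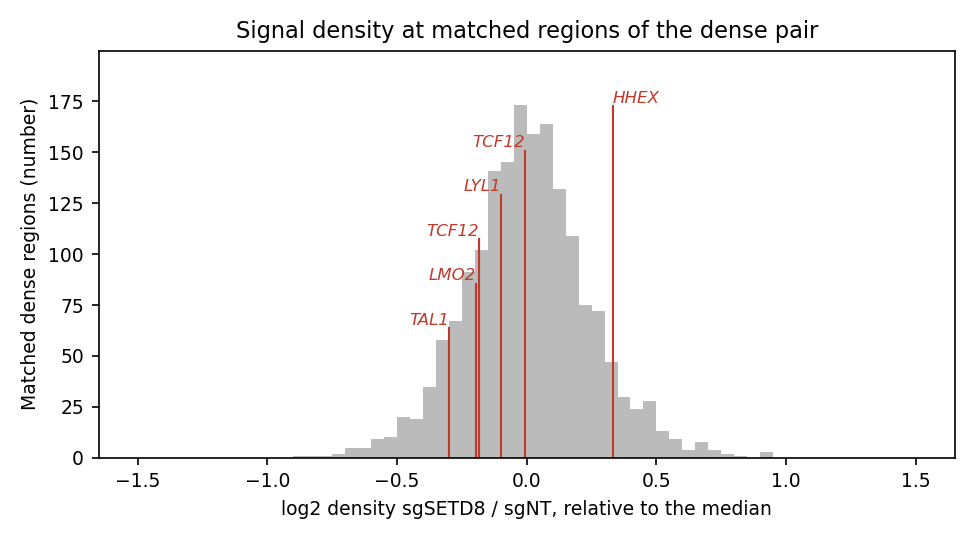
Log2 ratio of signal density, sgSETD8 over sgNT, at 1769 matched dense regions relative to their median (x axis), with the number of regions in bins of 0.05 (y axis, grey) and red lines at the 6 member regions, whose heights carry no value. TAL1 is furthest to the left at -0.30 and HHEX furthest to the right at 0.33.

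Lists of genes around this complex went in both directions, and their counts stand beside tables that were longer in sgSETD8, where 37.3% of genes in the dense pair and 51.3% in the sparse pair had more regions and 21.2% and 33.4% had fewer. Bridging partners had 17 regions in dense sgSETD8 and 10 in dense sgNT, and 4 in sparse sgSETD8 and 2 in sparse sgNT, with 3 of 7 genes having more and 0 fewer in the dense pair, and 2 of 7 having more and 0 fewer in the sparse pair. SSBP2 had 7 dense regions in sgSETD8 and 3 in sgNT, SSBP3 had 5 and 3, and LMO1 had 3 and 2. SSBP2 and SSBP3 encode proteins that protect LDB1 from degradation, and LMO1 is a LIM-only relative of LMO2. Among 4 inhibitors of E proteins, ID2 had 1 region in dense sgSETD8 and 0 in dense sgNT, and ID1, ID3 and ID4 had none. Of 7 GATA family and cofactor genes, ZFPM2 (FOG2) had 8 dense regions in sgSETD8 and 9 in sgNT, and GATA1 and GATA3 had none. That list had 9 regions in dense sgSETD8 and 10 in dense sgNT, and 8 in sparse sgSETD8 and 6 in sparse sgNT.

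Among 6 progenitor factors that bind with the complex, regions numbered 48 in dense sgSETD8 and 58 in dense sgNT. MYB, a regulator of progenitor proliferation, had 3 in sgSETD8 and 13 in sgNT, a difference as large as that of the list. FLI1, an ETS factor, had 10 in sgSETD8 and 12 in sgNT, RUNX1 29 and 28, and ERG 5 and 4. Their sparse regions numbered 6 in sgSETD8 and 9 in sgNT. The 10 corepressors and enzymes had 12 regions in dense sgSETD8 and 14 in dense sgNT, 3 genes with fewer and 1 with more. CBFA2T2, a relative of RUNX1T1, had 3 in sgSETD8 and 4 in sgNT, GFI1, a zinc finger repressor, had 4 and 5, and SIN3A, a scaffold for histone deacetylases, had 1 and 2. RCOR1, a partner of the demethylase KDM1A, had 2 in sgSETD8 and 1 in sgNT. The same list had 6 sparse regions in sgSETD8 and 2 in sgNT.

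The 10 targets of the complex or of E proteins had 31 regions in dense sgSETD8 and 26 in dense sgNT, and 12 in sparse sgSETD8 and 14 in sparse sgNT. NFE2, an erythroid and megakaryocytic bZIP factor, had 4 in sgSETD8 and 1 in sgNT. CDKN1A, the cell cycle inhibitor p21 and an E protein target, had regions in both sgSETD8 tables, 2 in the dense and 1 in the sparse, and 0 in both sgNT tables. PTCRA, the pre-T-cell receptor chain, had 1 in dense sgSETD8 and 0 in dense sgNT, and IGLL1, a surrogate light chain, had 0 and 1. KIT and CD34, targets and progenitor markers, were equal in the dense pair at 4 and 17 in each group, and KIT had 5 sparse regions in sgSETD8 and 8 in sgNT. The 13 other tissue-restricted bHLH genes had 5 regions in dense sgSETD8 and 6 in dense sgNT, and MESP1, with 0 in sgSETD8 and 1 in sgNT, was the gene that differed. Both sparse tables had 3 regions for that list.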

How the data were processed

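H3K27ac CUT&Tag was measured in 2 sgSETD8 and 2 sgNT samples of Kasumi-1, grouped by sample titles. The series design text names H3K27me1, while titles and antibody labels say H3K27ac. Per the submitters' processing notes, cutadapt, Bowtie2 and hg38 were used. For the peak caller, joining distance and annotation tool, names were not given in the sources used here. As a value, each region has the authors' deposited signal, equal to its length times a density with up to 4 decimals, on an unstated scale. Tables were grouped by the guide named in their region identifiers and paired by naming scheme, and which sample of a group a table holds was not worked out. All value columns had a group, so 0 were left out. Depth is unknown.

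Overlap was at least 1 bp, and identifiers without a count were taken as 1 peak. Shares have exact Clopper-Pearson 95% intervals. The overlap and density steps were tested on simulated data. The members and the lists were chosen with earlier results of these data known. Named genes of the lists were those with regions in both tables of 1 group and neither of the other, and up to 4 per list with the largest dense difference. Genes with the most similar counts are not named, because too many tied. Motif positions come from RefSeq windows on GRCh38.p14, the build of hg38. Alternatives covered ranks, width, distance, merging, cover and leaving out pairs. Software was pandas 2.3.3 and numpy 2.4.6 under Python 3.11.15, with scipy 1.17.1 for intervals and matplotlib 3.10.9 for figures.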

Additional observations from a re-analysis of the deposited data

How the results depend on the processing

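Of 42 alternatives to 9 results, 37 stayed within the limits used (1.5 times for ratios of numbers or length, the main 95% interval for shares, 1 SD for densities and for both pairs), 4 moved and 1 turned round. Some of the 37 could not have moved, as described below, so that number overstates how far the results were tried. In the better-ranked 50% of each table the log2 ratio of dense region numbers was 0 (12 in sgSETD8, 12 in sgNT), so no direction was left, and among the best-ranked 5000 it was -0.15 (9 in sgSETD8, 10 in sgNT). Keeping only sparse regions that overlap a dense region, chosen after seeing the data, moved the log2 ratio of sparse region numbers to -1.42 (3 in sgSETD8, 8 in sgNT). The same filter left 2132 of all sparse sgSETD8 regions and 4095 of all sparse sgNT regions, so the tables as a whole then also had fewer in sgSETD8. Among the best-ranked 5000 regions, the share of dense sgNT member regions without a counterpart was 0% (0 of 10). Without subtracting the median of matched regions, the median log2 density ratio of members was -0.40. Leaving out TCF12, also chosen after seeing the data, turned the log2 ratio of dense covered length to -0.24 (112 kb in sgSETD8, 132 kb in sgNT), against 0.13 with it, and within 50000 bp of a start that ratio was 0.0054, close to no difference. Over both pairs, leaving out each pair in turn gave -0.65 to -0.42, which are the values of the single pairs. With 2 pairs such values always lie within 1 SD of the mean, so this setting could not show a move. Merging neighbouring regions returned exactly the main value wherever it was applied. The numbers of member regions stayed the same, so no regions of the same member were near enough to be merged. For region numbers that setting could not show a move either, and for shares without a counterpart it changed nothing. The causes were not tested beyond what each setting leaves out.

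No paired analysis was possible because replicate numbers here only follow accession order and the tables are not tied to samples within a group. The pairs of tables rest on how their identifiers are named. Read depth is unknown, so the signal a region needed to be listed in each table is unknown too. Counts of 7 to 16 regions per table leave wide intervals, and 1 table per group in each pair gives no replicate error.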
